A study of Mus musculus with 8 samples.

Results

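The circadian clock genes were described here in the cortex of mice carrying a Mef2c mutation and of their controls. The set was chosen by name and holds 10 genes of the core clock loop and its output, Per1, Per2, Per3, Arntl, Clock, Npas2, Cry1, Cry2, Nr1d1 and Dbp, out of 22000 gene rows in the count table, and all 10 passed the filter on low counts. Messenger RNA was sequenced from whole cortex of 8 mice, 4 labelled Mef2c heterozygous and 4 labelled Mef2c wild type. Either genotype had 2 mice of each sex, and each mouse gave 1 library. The animal numbers in the sample titles fall into a lower and a higher run, and in either genotype replicates 1 and 2 belong to the lower run and replicates 3 and 4 to the higher, each pair being 1 male and 1 female. They are called the first and second run of animal numbers here; what the runs stand for is not in the labels. The altered part of Mef2c, the strain, the age, the lighting schedule and the time of day at tissue collection are not stated in the labels or the design text.

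The mammalian clock is a feedback loop of transcription. ARNTL (also called BMAL1) pairs with CLOCK or, in the forebrain, with NPAS2, and the pair activates the Per, Cry, Nr1d1 and Dbp genes through E-box sequences. PER and CRY proteins then inhibit the pair, while NR1D1 (REV-ERB alpha) represses Arntl, and DBP acts on D-box sequences of further genes. In tissues of mice the transcripts of Arntl and Npas2 therefore peak when those of Nr1d1, Dbp and Per3 are low, and the Arntl and Dbp sides of the loop are called here the morning arm and the evening arm.

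The start regions of Per1, Per3 and Arntl hold matches to sequences that factors of the loop can bind. They are printed because these genes stand on the opposing sides compared below. Each is the RefSeq window of 300 bases in GRCm38.p6, from 250 bases before to 50 bases after the annotated start, 5′ to 3′ on the strand of the gene. Capitals mark matches on either strand to CACGTG (the E-box), TTANGTAA (a D-box form) or TNGGTCA (a core that REV-ERB and ROR receptors can bind). The Per1 window lies at chr11:69098699-69098998 on the plus strand and holds CACGTG at position -166, counted from the start. The Per3 window at chr4:151044616-151044915 on the minus strand holds TTANGTAA at -205 and -158 and TNGGTCA at -118. The Arntl window at chr7:113207215-113207514 on the plus strand holds TNGGTCA at -200 and -181.
Per1: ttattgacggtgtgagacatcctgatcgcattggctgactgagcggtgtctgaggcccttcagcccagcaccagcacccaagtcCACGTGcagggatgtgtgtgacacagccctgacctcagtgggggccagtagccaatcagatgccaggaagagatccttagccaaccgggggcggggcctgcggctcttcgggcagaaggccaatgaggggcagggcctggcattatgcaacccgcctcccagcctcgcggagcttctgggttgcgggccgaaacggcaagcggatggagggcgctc
Per3: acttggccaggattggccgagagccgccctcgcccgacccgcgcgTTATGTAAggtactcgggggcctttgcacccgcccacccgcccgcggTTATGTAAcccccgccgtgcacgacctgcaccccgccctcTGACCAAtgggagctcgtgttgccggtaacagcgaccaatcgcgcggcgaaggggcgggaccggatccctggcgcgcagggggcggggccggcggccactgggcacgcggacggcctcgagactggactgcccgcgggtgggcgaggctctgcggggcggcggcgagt
Arntl: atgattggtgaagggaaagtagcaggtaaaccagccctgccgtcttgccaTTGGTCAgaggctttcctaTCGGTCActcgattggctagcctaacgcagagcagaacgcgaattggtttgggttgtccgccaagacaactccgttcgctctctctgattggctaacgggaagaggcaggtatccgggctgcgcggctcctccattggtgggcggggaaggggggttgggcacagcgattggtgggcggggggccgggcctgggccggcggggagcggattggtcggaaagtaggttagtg
Of all 32851 windows in the RefSeq table, 7.15% held CACGTG, 2.32% held TTANGTAA and 11.0% held TNGGTCA, and none of the marked matches overlapped another. Of the 10 members 9 had a window (Per2 had no entry), with 13 windows in all, of which 2, 1 and 4 held the respective sequence. Those with TNGGTCA were of Per3, Cry2 and Arntl, where the windows of start sites 1 and 2 overlap and share the printed matches. The Arntl window of start site 2 held a further TNGGTCA match, at position 31 from that start, which lies beyond the printed window. The printed Per1 and Arntl windows are those of start site 1, and the window of Per1 start site 2 held no match. The other window with CACGTG was that of Cry1, at position -60. The windows of Clock, Npas2, Nr1d1 and Dbp, which also stand on the opposing sides, held none of these sequences. A match describes letters and is not evidence of binding.

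Total counts per library lay between 16092773 and 17841377, and RNA integrity numbers between 8.6 and 9. Levels are given as CPM, counts scaled to a common library size by TMM. Mef2c itself had 1233, 1336, 1391 and 1255 CPM in the libraries labelled heterozygous 1 to 4 and 1038, 939, 999 and 1003 CPM in those labelled wild type 1 to 4. It was therefore higher, not lower, under the heterozygous label (log2 fold change 0.39 ± 0.05, SE), and genotype directions are those of the labels throughout. The cortical marker Slc17a7 lay between 1776 and 2030 CPM in all libraries. The choroid plexus markers together lay between 2.29 and 6.03 CPM.

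Per kilobase of exon, Nr1d1 was the most abundant clock transcript and Per3 and Arntl were the least. Over the 8 libraries, Nr1d1 had 47.5 ± 5.10 CPM per kilobase (SD, n = 8), Dbp 31.0 ± 4.92, Cry2 26.4 ± 1.36, Per1 23.4 ± 2.48 and Npas2 13.9 ± 1.64. Per2 had 10.5 ± 1.31, Cry1 8.91 ± 1.04, Clock 7.87 ± 0.421, Arntl 6.004 ± 0.739 and Per3 5.94 ± 0.504 CPM per kilobase. Neighbours in this order shared part of their range, apart from 3 steps: Nr1d1 lay above Dbp, Per1 above Npas2 and Clock above Arntl in every library. Lengths are the joined exons of all annotated transcripts in GENCODE M21, so a gene whose long forms are little used is understated.

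The members differed in how much they varied among the mice. Dbp had the largest coefficient of variation, 15.9%, with a 1.54-fold span between the lowest and highest library. Per2 had 12.5%, Arntl 12.3%, Npas2 11.8%, Cry1 11.6%, Nr1d1 10.7%, Per1 10.6% and Per3 8.48%. Clock, whose transcript is known to cycle little, had 5.34% and Cry2 5.16%. The 5164 tested genes within the same range of mean CPM had a median of 6.45%, so 8 of the members lay above it and Clock and Cry2 below it.

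The study set heterozygous against control cortex to compare expression across the genome. None of the 10 clock genes passed the test, and all 10 overlapped between the genotypes. The largest difference was in Cry1, a repressor of the loop, at 31.8 ± 2.85 CPM under the heterozygous label and 27.7 ± 3.01 CPM under the wild type label (SD, n = 4 each). The evening arm and the morning arm each differed between the genotypes by less than the spread within a genotype. That spread holds the step between the runs described below. In bulk tissue, fewer cells of a type and less RNA per cell cannot be told apart, here and in all comparisons below.

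For Cry1 (ENSMUSG00000020038.10, chromosome 10 from 85131700 to 85185064 in GRCm38) heterozygous 1 to 4 had 29.0, 34.7, 33.7 and 29.6 CPM, and wild type 1 to 4 had 25.3, 25.7, 31.9 and 28.1 CPM. The highest wild type library, replicate 3, lay above the 2 lowest heterozygous libraries. The log2 fold change was 0.20 ± 0.09 (SE), the unadjusted p was 0.0459 and the Benjamini-Hochberg adjusted p 0.669 (edgeR, quasi-likelihood). Within the first run alone the log2 fold change of Cry1 was 0.32 ± 0.12, and within the second 0.08 ± 0.11. Either run holds 2 mice of each genotype, and Cry1 passed in neither. Among 13879 genes tested, 0.267% were called (37 genes) at an adjusted p under 0.05, and 7.24% had an unadjusted p under 0.05. Of the members, 0 were called and 1, Cry1, had an unadjusted p under 0.05. DESeq2 and limma-voom likewise called 0. Non-overlap between the genotypes was seen in 4.55% of tested genes and in 0 members.

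Among the activators, the log2 fold change between the genotypes was -0.002 ± 0.099 (SE) for Arntl, -0.08 ± 0.06 for Clock and 0.12 ± 0.09 for Npas2. Among the PER genes it was 0.10 ± 0.08 for Per1, -0.05 ± 0.10 for Per2 and 0.05 ± 0.07 for Per3. Cry2 had 0.03 ± 0.06, and the Arntl repressor Nr1d1 and the output gene Dbp had 0.13 ± 0.09 and 0.07 ± 0.18. Of the 10, 7 lay above 0, with a median of 0.06, against 49.5% above 0 and a median of -0.001 over all tested genes. With the run of animal numbers as a further term, the SE of Dbp was 0.08 in place of 0.18 and its log2 fold change was 0.07. In that fit the lowest unadjusted p among the members was 0.0356, again for Cry1 (adjusted p 0.522, edgeR). The plot of both contrasts sets these values beside those between the runs, where Dbp, Arntl, Npas2, Per1 and Per2 lay farthest from 0.

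**Figure D1:**
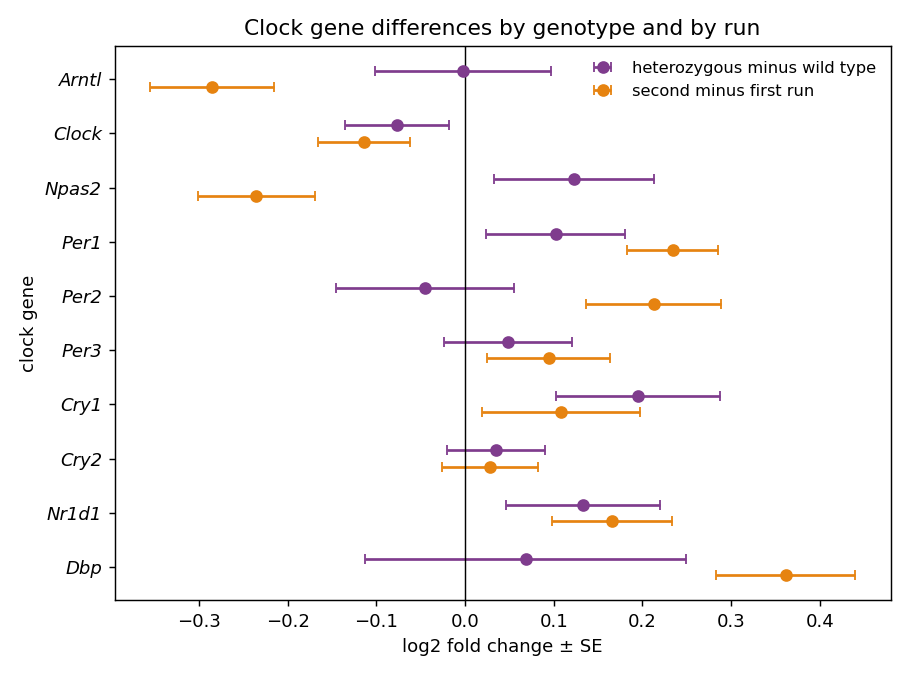
Log2 fold changes of the 10 clock genes (horizontal axis, error bars are SE) between the libraries labelled heterozygous and wild type and between the second and the first run of animal numbers. Arntl lies at -0.002 between the genotypes and at -0.29 between the runs, and Dbp at 0.07 and 0.36.

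The comparison of the runs of animal numbers asked whether libraries of mice with neighbouring numbers shared a clock state, since either run holds the same number of mice of each genotype and sex. In the second run, Per1 rose, from 121 ± 6.53 to 143 ± 10.3 CPM (SD, n = 4). Dbp was at 104 ± 6.04 CPM against 81.3 ± 10.9 CPM, while the activators were at lower levels: Arntl had 40.8 ± 4.48 against 49.5 ± 1.06 CPM and Npas2 61.4 ± 4.66 against 72.2 ± 6.68 CPM. All 5 genes of the evening arm had a log2 fold change above 0 and all 3 of the morning arm one below 0. Of these, Per1 was the 1 member called, where 0.382% of tested genes (53 genes) were called. At an unadjusted p under 0.05 there were 7 of the 10 members, against 10.2% of tested genes, and 4 members did not overlap between the runs, against 5.46%.

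**Figure D2:**
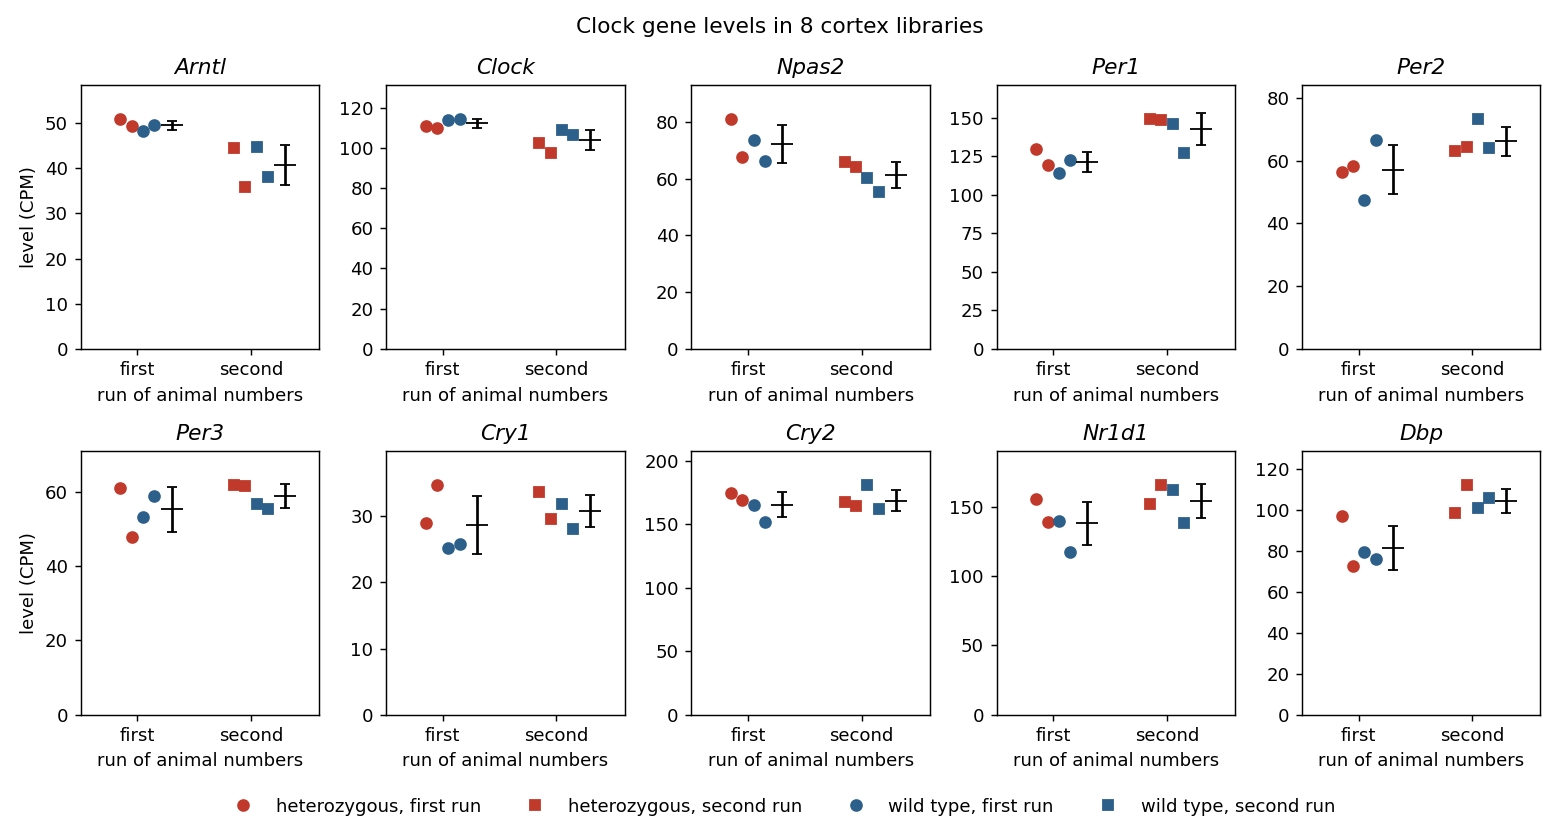
Level in CPM (vertical axis, from 0) of each clock gene in the 8 libraries, by run of animal numbers, with the mean and SD of each run in black (n = 4), colour for genotype and shape for run. Arntl, Clock and Npas2 are lower and Dbp is higher in all 4 libraries of the second run than in any of the first.

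Per1, a repressor of the loop that light, neuronal activity and glucocorticoids are also known to induce, is a plus-strand gene of chromosome 11, from 69095217 to 69109960 in GRCm38 (ENSMUSG00000020893.17). In the first run it had 129.6 and 119 CPM in heterozygous 1 and 2 and 114 and 122 CPM in wild type 1 and 2. In the second run it had 149 and 148 CPM in heterozygous 3 and 4 and 146 and 127 CPM in wild type 3 and 4. Wild type 4 lay below heterozygous 1, so the runs overlapped by this pair. The log2 fold change was 0.23 ± 0.05 (SE; adjusted p 0.0437, edgeR). The call was kept without wild type 4 (adjusted p 0.0299) and lost without any of the other libraries, with adjusted p from 0.0617 without wild type 1 to 0.33 without heterozygous 4, while the log2 fold change stayed between 0.20 and 0.26. With limma-voom the adjusted p was 0.0552. In 1 genotype or 1 sex alone, with 2 mice per run, Per1 did not pass either. The adjusted p in these fits lay between 0.0765 (males) and 0.710 (wild type; edgeR).

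Dbp, a D-box activator whose transcript is among the strongest cycling ones in mouse tissues, lies on chromosome 7 from 45705088 to 45710203 (ENSMUSG00000059824.12). It had 97.1 and 72.7 CPM in heterozygous 1 and 2 and 79.5 and 76.0 CPM in wild type 1 and 2. The second run had 98.2 and 112 CPM in heterozygous 3 and 4 and 101 and 106 CPM in wild type 3 and 4, all above the first run, although heterozygous 1 came within 1.14 CPM of heterozygous 3. The log2 fold change between the runs was 0.36 ± 0.08 (SE; adjusted p 0.0601, edgeR), which did not pass. It passed without heterozygous 1 (0.48, adjusted p 0.000433) and without heterozygous 3 (0.43, adjusted p 0.0228), and with DESeq2 (adjusted p 0.00778) and limma-voom (0.0417). In fits with 2 mice per run it also passed in wild type libraries alone (0.41, adjusted p 0.00716) and in females alone (0.52, 0.00636). It did not pass in heterozygous libraries alone (0.32, 0.305) or males alone (0.21, 0.155). The interaction of genotype with run was -0.10 ± 0.16 (SE) for Dbp and was not called. Whether the step of Dbp differs between the sexes was not tested. Of the joined exons of Dbp, 18.01% overlap exons of Sphk2 on the other strand, whose log2 fold change between the runs was 0.04 ± 0.07.

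Arntl, the activator without which the loop stops, lies on chromosome 7 from 113207465 to 113314126 (ENSMUSG00000055116.8). It had 50.9 and 49.4 CPM in heterozygous 1 and 2 and 48.3 and 49.5 CPM in wild type 1 and 2, a narrow range. The second run had 44.5 and 35.8 CPM in heterozygous 3 and 4 and 44.7 and 38.2 CPM in wild type 3 and 4. The females of the second run, heterozygous 4 and wild type 4, were the lowest. The log2 fold change was -0.29 ± 0.07 (SE; adjusted p 0.0720, edgeR), which did not pass. Without the filter on low counts the adjusted p was 0.0476.

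Npas2, the forebrain partner of ARNTL, had 80.9 and 67.8 CPM in heterozygous 1 and 2 and 73.7 and 66.2 CPM in wild type 1 and 2. In the second run it had 65.7 and 64.2 CPM in heterozygous 3 and 4 and 60.3 and 55.3 CPM in wild type 3 and 4. All 4 lay below the first run, by as little as 0.488 CPM between wild type 2 and heterozygous 3. Npas2 had a log2 fold change of -0.24 ± 0.07 (SE; adjusted p 0.138, edgeR). Clock, the other partner, had 109.7 to 114 CPM in the first run and 97.5 to 109 CPM in the second, a log2 fold change of -0.11 ± 0.05 with an adjusted p of 0.455. The runs did not overlap for Clock either.

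Nr1d1, which represses Arntl, had 156 and 139 CPM in heterozygous 1 and 2, 139.9 and 118 CPM in wild type 1 and 2, 152 and 166 CPM in heterozygous 3 and 4 and 162 and 138 CPM in wild type 3 and 4. The runs overlapped, and the log2 fold change was 0.17 ± 0.07 (SE; adjusted p 0.393, edgeR). Of its joined exons, 8.55% overlap the other strand's Thra, which had a log2 fold change between the runs of 0.01 ± 0.04. Per2 had 47.4 to 66.5 CPM in the first run and 63.0 to 73.2 CPM in the second, with 0.21 ± 0.08 (adjusted p 0.287). Per3, Cry1 and Cry2 had 0.09 ± 0.07, 0.11 ± 0.09 and 0.03 ± 0.05, and their runs overlapped. The counting is not stated to use strand, so reads of Dbp and Sphk2, or of Nr1d1 and Thra, may not have been told apart where their exons overlap.

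The opposing arms were summarised in each library as the mean centred log2 CPM of Per1, Per2, Per3, Nr1d1 and Dbp (evening arm) and of Arntl, Clock and Npas2 (morning arm). The difference, evening minus morning, is a description, and no test was run on it. In the first run it was -0.14 and -0.24 in heterozygous 1 and 2 and -0.30 and -0.18 in wild type 1 and 2. In the second run it was 0.13 and 0.34 in heterozygous 3 and 4 and 0.18 and 0.19 in wild type 3 and 4. All libraries of the first run lay below 0 and all of the second above 0.

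**Figure D3:**
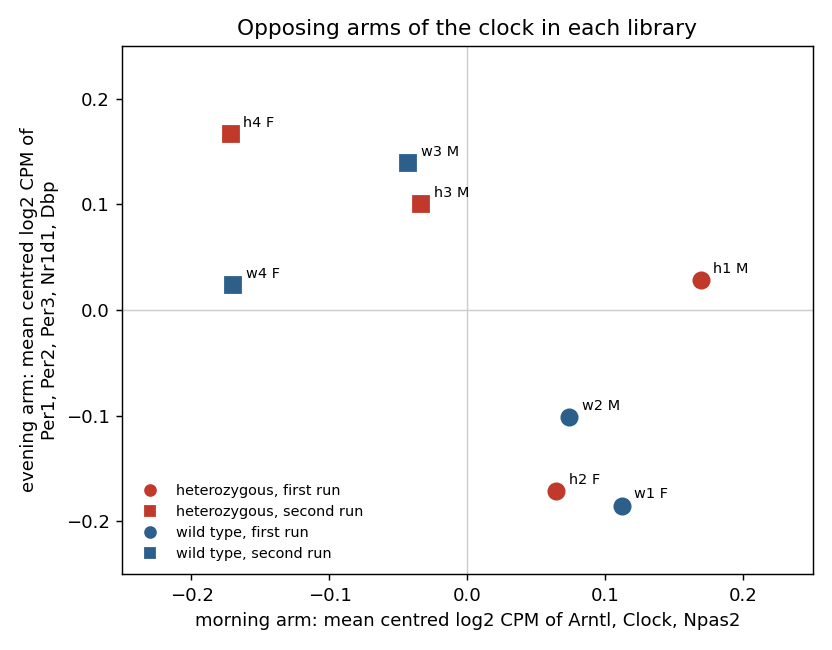
Each point is 1 library (h heterozygous, w wild type, with replicate number and sex), placed by the mean centred log2 CPM of the morning arm (horizontal) and of the evening arm (vertical). The first run lies on the right, with the morning arm between 0.06 and 0.17, and the second on the left, between -0.17 and -0.03.

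Between the runs the arm difference was 0.42, made up of 0.21 in the evening arm and -0.21 in the morning arm. It was 0.42 within the heterozygous libraries and 0.42 within the wild type libraries, each from 2 mice per run. Between the genotypes it was 0.05, at 0.02 ± 0.26 (SD, n = 4) in the heterozygous and -0.02 ± 0.25 in the wild type libraries, and it was 0.05 within the first run and 0.05 within the second. The genotypes therefore differed by less than the SD within either of them, but that SD holds the step between the runs. With both genotypes together, the SD of the arm difference was 0.07 within the first run and 0.09 within the second. Between males and females the means differed by 0.0003. The step between the runs was 0.32 in males and 0.53 in females.

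An interaction of genotype with run, a test added after the data had been seen, called 0 of the 10 members in edgeR, where 0.00721% of tested genes were called. At an unadjusted p under 0.05 there were 0 members, against 4.09% of tested genes. An arm difference is known to follow the time of day, but no time of collection is stated in the labels, and its part in the step between the runs was not tested. RNA integrity numbers were 8.6 to 8.9 in the first run and 8.6 to 9 in the second. With that number as a term Per1 had a log2 fold change between the runs of 0.23 (adjusted p 0.0470, edgeR). In the same fit Dbp had 0.33 (adjusted p 0.0666), Arntl -0.26 (0.109), Npas2 -0.24 (0.132) and Per3 0.05 (0.819), none of which passed.

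Relations of the members with Arntl across the 8 libraries were computed for 9 genes, with exact permutation tests over all pairings. Arntl had Pearson's r of -0.77 with Dbp (two-sided exact permutation p 0.0307, adjusted 0.138) and Spearman's rho of -0.81 (p 0.0218, adjusted 0.0838). With Clock r was 0.82 (exact permutation p 0.0168, adjusted 0.138) and rho 0.86 (p 0.0107, adjusted 0.0838), and with Npas2 r was 0.68 (p 0.0601, adjusted 0.180) and rho 0.79 (p 0.0279, adjusted 0.0838). None of the 9 relations passed after adjustment. Without wild type 4 and heterozygous 4, the libraries farthest from the median of Arntl, r was -0.57 with Dbp, 0.71 with Clock and 0.73 with Npas2. A run holds 4 libraries, too few for a relation of its own. After centring within the runs, r was -0.27 with Dbp, 0.51 with Clock and 0.20 with Npas2, and the lowest adjusted exact permutation p of the 9 was 0.75. The value with Dbp kept its sign and was nearer 0 than over all libraries. Those with the other evening arm genes changed sign. Over all libraries r was -0.55 with Per1, -0.38 with Per2, -0.30 with Per3 and -0.41 with Nr1d1. After centring within the runs it was 0.37, 0.29, 0.07 and 0.09 in the same order.

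By the same measure over 8 libraries, the 5 genes most like Dbp among 10485 tested genes (those whose mean log2 CPM reached 3) were Clcn5 (r = 0.98), Prr18 (0.97), Ccdc28b (0.96), Dars (0.95) and Carhsp1 (0.94). Those most like Arntl were Lrrc7 (0.99), Usp45 (0.95), Cct7 (0.95), Stk11 (0.95) and Zfpm1 (0.95). These values are the highest of many and describe these libraries only.

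A list of 26 further clock genes was described beside the members, of which 25 were tested and Nampt had no row in the table. None was called between the genotypes or between the runs. Between the genotypes 13 of 25 lay above 0 (49.5% of all tested genes did), with a median of 0.02. At an unadjusted p under 0.05 there were 3 of 25, against 7.24% of all tested genes, and none passed after adjustment. These were Ciart, a repressor of the ARNTL pair (17.4 ± 2.13 against 13.7 ± 2.87 CPM, log2 fold change 0.34), the D-box factor gene Hlf (382 ± 11.6 against 350 ± 25.4 CPM, 0.13) and the deubiquitinase gene Usp2 (79.2 ± 9.10 against 70.6 ± 0.974 CPM, 0.16). Bhlhe41 had 0.18, the kinase gene Wee1 -0.16 and Noct, which codes for nocturnin, 0.09. The adjusted p of these 6 lay between 0.537 and 0.891 (edgeR).

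Between the runs 11 of 25 lay above 0 (50.9% of all tested genes did), with a median of -0.01. At an unadjusted p under 0.05 there were 3 of 25, a share near the 10.2% of all tested genes. Among them were Arntl2, the paralog of Arntl, at -0.49 ± 0.13 (SE), and the E-box repressor gene Bhlhe40 at 0.20 ± 0.06. Both were singled out after their values had been seen. Nr1d2, a paralog of Nr1d1, had 0.02 ± 0.05, and Tef and Hlf, paralogs of Dbp, had 0.06 ± 0.04 and -0.02 ± 0.05. Whether the paralogs differ from Dbp in this was not tested.

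Other genes differed between the runs beside the clock genes. Of 9 temperature and heat shock genes, the chaperone genes Hspa1b (-0.99 ± 0.16, SE) and Hsph1 (-0.21 ± 0.05) fell in the second run. An unadjusted p under 0.05 was seen for 7 of the 9, against 10.2% of tested genes. The adjusted p was 0.00387 for Hspa1b and 0.0487 for Hsph1 (edgeR). The cold-inducible RNA-binding protein genes Cirbp and Rbm3, members of the same list, had 0.38 ± 0.09 (adjusted p 0.0502) and 0.25 ± 0.07 (0.126). Cirbp lay between 25.6 and 29.4 CPM in the first run and between 32.0 and 42.2 CPM in the second. Rbm3 lay between 65.0 and 75.8 CPM and between 79.3 and 96.7 CPM. Neither overlapped between the runs, as was so for 5.46% of tested genes. Hspa1b lay between 8.01 and 11.6 CPM in the first run and between 3.30 and 6.13 CPM in the second.

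Markers of endothelial cells, which line the vessels, had lower means in the second run. None of the 6 was at 0 in any library. All 6 had an unadjusted p under 0.05, against 10.2% of tested genes, and a log2 fold change below 0 (median -0.44). Only Pecam1 (-0.53 ± 0.12) was called, at an adjusted p of 0.0437 (edgeR). The summed level of the 6 was 176 to 196 CPM in the first run and 126 to 170.4 CPM in the second. The drop was not even between the genotypes. Flt1 had 59.8, 53.7, 35.5 and 33.5 CPM in heterozygous 1 to 4 and 52.8, 53.1, 53.7 and 41.5 CPM in wild type 1 to 4. In the interaction of genotype with run, Flt1 had -0.55 ± 0.14 (SE), Cldn5 -0.56 ± 0.24 and Slco1c1 -0.33 ± 0.15. Cdh5, Tek and Pecam1 had -0.34 ± 0.25, -0.23 ± 0.24 and 0.06 ± 0.24. None was called, with a lowest adjusted p of 0.464 for Flt1 (edgeR). Of 6 interneuron markers, the neuropeptide gene Sst was called and higher (0.22 ± 0.05), with a median of 0.04 for the list. At an unadjusted p under 0.05 there were 2 of these 6, Sst and Gad1. No marker was called between the runs among those of excitatory neurons (median -0.06), astrocytes (0.06), oligodendrocytes (0.12), microglia (-0.05), striatum (-0.32), thalamus (-0.04) and choroid plexus (-0.001). At an unadjusted p under 0.05 there were 2 of 6 oligodendrocyte markers (Cnp 0.30 and Mog 0.39, the latter without overlap between the runs), 2 of 6 astrocyte markers (Aldh1l1 0.22 and Gfap 0.22) and 2 of 6 striatal markers (Pde10a -0.34 and Rgs9 -0.31). There was 1 each for excitatory neurons (Tbr1 -0.12) and thalamus (Calb2 0.34), and 0 for microglia and choroid plexus. Over all tested genes the share at that p was 10.2%, and 5.46% did not overlap between the runs. In lists this short, counts of 0 or 1 are near the share. In the interaction of genotype with run, Gfap had 0.45 ± 0.13 (SE) and Calb2 0.65 ± 0.27. Pde10a had -0.53 ± 0.13 and Rgs9 -0.69 ± 0.26. The steps of Gfap, Calb2, Pde10a and Rgs9 were larger in heterozygous than in wild type libraries. Cnp, Mog, Aldh1l1 and Tbr1 had 0.02 ± 0.19, 0.18 ± 0.26, 0.15 ± 0.16 and 0.001 ± 0.094. The striatal marker Drd2, at 1.18 to 5.86 CPM, had -3.17 ± 0.56. None was called, with a lowest adjusted p of 0.0657 for Drd2 (edgeR). The part of endothelial cells, temperature genes or other cell types in the step of the clock genes was not tested.

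**Figure D4:**
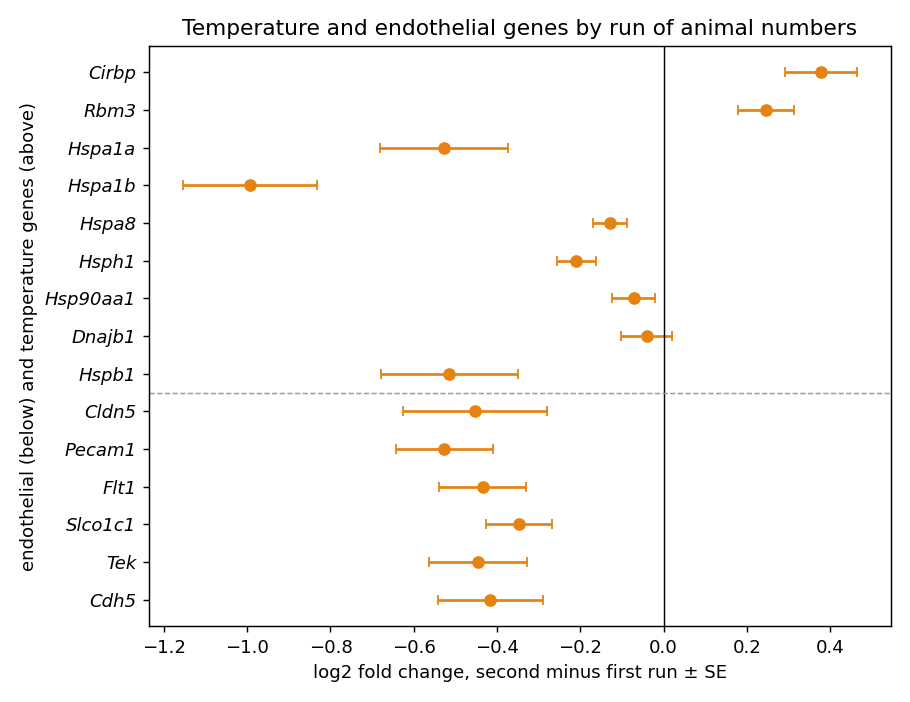
Log2 fold changes between the second and the first run (horizontal axis, error bars are SE) of 9 temperature and heat shock genes and 6 endothelial markers. Cirbp and Rbm3 lie at 0.38 and 0.25, the other 13 genes below 0, down to -0.99 for Hspa1b.

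Neuronal activity and glucocorticoids are known to induce Per1, so genes that respond to them were described beside it. Of 11 activity-induced genes 0 were called between the runs, with a median of 0.03. At an unadjusted p under 0.05 there was 1 (Egr2), a share near the 10.2% of all tested genes. Fos had 0.10, Egr1 0.10, Nr4a1 0.09, Arc -0.15 and Npas4 -0.39. Their summed level was 763 to 1152 CPM in the first run and 882 to 1035 CPM in the second, so the ranges overlapped. Of 10 glucocorticoid response genes 0 were called, with a median of -0.06. An unadjusted p under 0.05 was seen for 3, against 10.2% of tested genes. These were Cdkn1a (-0.39, adjusted p 0.0688, edgeR), Nfkbia (-0.36, adjusted p 0.0961, without overlap between the runs) and Ddit4 (-0.23, adjusted p 0.431). Over all tested genes 5.46% did not overlap between the runs. Fkbp5 had 0.09, Sgk1 -0.22 and Tsc22d3 0.01. The last 2 values average over genotypes that differed in direction. Wild type 1 to 4 had 78.6, 77.3, 48.2 and 57.3 CPM of Sgk1, and heterozygous 1 to 4 had 57.5, 63.8, 64.5 and 67.3 CPM. In the interaction of genotype with run, Sgk1 had 0.69 ± 0.13 (SE; adjusted p 0.0657, edgeR). There Tsc22d3 had 0.48 ± 0.13 (adjusted p 0.464) and Fkbp5 0.25 ± 0.17, and none of them was called. Between the genotypes Fkbp5 rose (0.45 ± 0.09, adjusted p 0.0302, edgeR), while Sgk1 and Tsc22d3 had -0.05 and 0.07. Of the 10, 3 had an unadjusted p under 0.05, against 7.24% of tested genes. Beside Fkbp5 these were Cdkn1a at -0.44 and Errfi1 at 0.19, and the median of the list was -0.03.

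Between males and females 0 members were called in edgeR, DESeq2 and limma-voom, where 0.0288% of tested genes were called in edgeR (0.0144% higher in males). In edgeR 0 members had an unadjusted p under 0.05, against 2.92% of tested genes, and for 0 members the sexes did not overlap, against 1.97%. All 10 had a male minus female log2 fold change above 0, against 50.1% of tested genes, from 0.007 for Dbp to 0.14 for Per2 and Arntl. The interaction of genotype and sex likewise called 0 members, where 0% of tested genes were called, by edgeR, DESeq2 and limma-voom. In edgeR's test Per2 was the 1 member with an unadjusted p under 0.05, against 2.64% of tested genes, with -0.36 ± 0.17 (SE, unadjusted p 0.0472). Its genotype log2 fold change was -0.22 among males alone and 0.14 among females alone, from 2 mice per sex and genotype.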

How the data were processed

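Reads of poly-A selected RNA from whole cortex had been aligned and counted by the authors. The deposited values are raw read counts per gene symbol, and the tools were STAR 2.5.2b and HTSeq with build mm10, per the submitters' processing notes. For annotation, strand setting and filters the labels and notes give nothing. From the counts, genes were kept with filterByExpr by genotype (minimum count 10), which left 13879 genes and 99.95% of reads, and scaled by TMM. Tests were edgeR 4.0.16 quasi-likelihood F-tests (R 4.3.3, robust) with sex and genotype as terms, plus the run of animal numbers for that contrast, at a Benjamini-Hochberg adjusted p under 0.05 over all genes. SEs were taken from the fold change and its F statistic. DESeq2 1.42.0 and limma-voom 3.58.1 were alternatives, and the steps were tested on simulated data. Centred log2 CPM used a pseudocount of 0.5 CPM. Permutation p values were counted over all pairings, or over those within the runs for centred values, with ranks and adjusted p from scipy 1.17.1. Coordinates and exon lengths come from GENCODE M21 (GRCm38).

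For the run contrast, the fits on 1 genotype or sex or with RIN, the alternatives for single genes, the arms and the further list, the centring within runs and the interaction with genotype were added after the data had been seen. The members, lists and tests were chosen with earlier results of these data known. Named genes were the 10 members, Mef2c, called genes of the further clock list or else its 6 with the smallest genotype p, chosen genes of the temperature, activity and glucocorticoid lists, antisense neighbours and the 5 genes most like Dbp and Arntl. Egr2, Cdkn1a, Nfkbia, Ddit4, Errfi1, Gad1, Cnp, Mog, Aldh1l1, Gfap, Pde10a, Rgs9, Drd2, Tbr1, Calb2, Pecam1, Flt1, Cldn5, Slco1c1, Cdh5, Tek, Hsph1, Sst, Arntl2, Bhlhe40, Nr1d2, Tef and Slc17a7 are named outside this rule, after their values were seen. Libraries of a genotype were distinct, with a chi-square per degree of freedom of at least 4.04 between any pair.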

Additional observations from a re-analysis of the deposited data

Results flagged for a closer look

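Of 34 groups of 4 libraries examined (the members, 6 further clock genes and the arm difference in either genotype), 1 held a library far from the others. Per3 had 47.9 CPM in heterozygous 2, and the other 3 heterozygous libraries had 61.1 to 61.8 CPM. The gap was 0.947 of the range of the group, above Dixon's critical value at 95%. Chance flags about 1 in 20 groups.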

How the results depend on the processing

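No clock gene was called between the genotypes under any of the 22 alternatives run, among them other scalings, filters, tools, covariates, each sex or run alone and each library left out, nor between the sexes or in their interaction under the 14 run there. The count called between the runs, 1 in the comparison above, was 3 without a filter on low counts (Per1, Dbp and Arntl), 2 with the DESeq2 Wald test (Per1 and Dbp) and 0 to 1 with 1 library left out. In fits chosen after seeing the data, with 2 mice per run, it was 0 in the heterozygous libraries alone and 0 in males alone. It was 1 in wild type libraries alone and in females alone. The gene called was Dbp, not Per1, in the last pair, with limma-voom and without heterozygous 1 or 3. Bhlhe40 alone of the further list was called without wild type replicate 4, a range of 0 to 1. Over all tested genes, the count between the genotypes was 37, and 82 without a filter, 80 with DESeq2, 72 with the run as a term, 7 in males, 6 in females, 164 in the first run, 70 in the second run, 72 at an adjusted p under 0.1, and 19 (without wild type 2) to 80 (without heterozygous 1) with 1 library left out. Between the runs it was 53, and 95 without a filter, 108 and 27 in heterozygous and wild type libraries, 303 and 32 in males and females, and 11 (without heterozygous 4) to 77 (without wild type 1) with 1 library left out. The interaction with sex had up to 2 called genes, and the sexes 2 to 6, with 1 library left out.

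The arm difference between the runs (0.42) was 0.34 with Cry1 in the morning arm, 0.31 with Cry2 also in the evening arm, 0.52 for Dbp and Nr1d1 against Arntl and Npas2, 0.32 in males and 0.53 in females, and 0.38 to 0.45 with 1 library left out. Between the genotypes (0.05) it lay between -0.06 and 0.13 with 1 library left out.

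Genotype differences that changed sign were those of uncalled genes near 0. Per2 had 0.14 in females and 0.0291 in the first run. Per3 had -0.00169 with RIN as a term and -0.0485 in the first run. Arntl had 0.000285 with upper-quartile scaling, 0.0404 with RIN, 0.0197 in males and 0.0384 in the first run. Cry2 had -0.0452 in the second run. Dbp had -0.00339 with RIN and -0.00321 in females. With 1 library left out the ranges were -0.16 to 0.0235 (Per2), -0.0189 to 0.12 (Per3), -0.0944 to 0.0881 (Arntl), -0.0145 to 0.0874 (Cry2) and -0.0498 to 0.20 (Dbp). Between the runs Per3 had -0.0183 in males, Cry1 -0.00981 in heterozygous libraries and -0.0422 in females, and Cry2 -0.0544 and -0.0351 there and -0.0286 to 0.0543 with 1 library left out. Centred within runs, the correlation with Arntl was 0.37 for Per1, 0.29 for Per2, 0.0671 for Per3, 0.44 for Cry1 and 0.0875 for Nr1d1, and that with Cry2 was -0.33 without the 2 farthest libraries. The causes of these changes were not tested.

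The labels give no pairing of mice across the genotypes, so no replicate block was fitted. With sex and run as terms, 0 members were called between the genotypes.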
